A study of Mus musculus with 6 samples.

Results

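The genes of MHC class II antigen presentation were followed in mammary tumors and control mammary glands. The list held 7 genes, *H2-Aa*, *H2-Ab1*, *H2-Eb1*, *H2-DMa*, *H2-DMb1*, *Cd74* and *Ciita*, and a gene was measured by the probe sets that the array annotation gives to that gene alone. By this rule 6 of the 7 genes were measured, out of 12518 genes tested in all. *H2-DMb1* had no value of its own, because its 2 probe sets are annotated together with *H2-DMb2*.

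The tumors came from *K14-cre*; *Apc CKO/+* mice, which carry 1 conditional allele of the tumor suppressor *Apc* and a Cre recombinase driven by the keratin 14 promoter, active in stratified epithelia and in basal cells of the mammary gland. All 3 tumors had acinar histology, and in each of them the recombined *Apc* allele was accompanied by a truncating mutation of the remaining allele. The 3 control glands were from age-matched *cre*-negative mice, for which the sources give neither the *Apc* genotype nor the age. Each sample was hybridized to its own Affymetrix mouse array, so 6 arrays were compared. The samples were whole tumors and whole glands, and the mice had been bred from C57BL/6, 129/S and FVB stock, strains whose MHC genes differ in sequence. The sources do not give the strain composition of single animals, and its part in the signals below was not tested. The median signal per array was 124.4 to 170.7. Control gland 1 stood apart by bright leukocyte markers and control gland 3 by a low *H2-Eb1*, so counts without single arrays are given beside the results.

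MHC class II molecules present peptides from engulfed proteins to CD4+ T cells. An alpha and a beta chain pair in the endoplasmic reticulum with the invariant chain, which is encoded by *Cd74* and blocks the groove until the complex reaches an endosome. There the invariant chain is degraded by proteases and the DM molecule, a dimer of H2-DMa and H2-DMb chains, exchanges its last fragment for antigenic peptides. Transcription of all of these genes depends on CIITA, a coactivator that is recruited by RFX, CREB and NF-Y bound to the X and Y boxes of class II promoters. In the mammary gland, dendritic cells, macrophages and B cells carry most class II protein, and epithelial cells can be induced to make it by interferon-gamma.

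The X and Y boxes are shown for 4 members, because these are the elements through which class II genes are transcribed together. The sequences are the 110 bases before the annotated start in RefSeq (build GRCm38.p6), 5′ to 3′ on the strand of the gene. Capitals mark GNAAC, letters found in the RFX site of an X box, followed 20 to 35 bases later by ATTGG, the Y box read by NF-Y. *H2-Aa* lies on the minus strand, with the stretch at chr17:34287824-34287933. *H2-Eb1* lies on the plus strand, with the stretch at chr17:34305757-34305866. *H2-DMb1* is on the plus strand at chr17:34153081-34153190, and the first of 2 windows of *H2-DMa* is on the plus strand at chr17:34122722-34122831.
H2-Aa: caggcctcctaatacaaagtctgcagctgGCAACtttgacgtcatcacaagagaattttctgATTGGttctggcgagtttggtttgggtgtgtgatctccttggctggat
H2-Eb1: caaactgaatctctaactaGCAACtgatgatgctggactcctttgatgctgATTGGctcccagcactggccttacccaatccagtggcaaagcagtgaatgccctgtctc
H2-DMb1: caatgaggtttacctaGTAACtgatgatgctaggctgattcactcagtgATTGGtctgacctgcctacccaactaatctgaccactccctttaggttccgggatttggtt
H2-DMa: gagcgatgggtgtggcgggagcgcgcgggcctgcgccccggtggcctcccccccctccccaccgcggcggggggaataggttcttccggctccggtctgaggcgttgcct

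The pair of motifs was found with a gap of 28 bases in *H2-Aa*, 27 in *H2-Eb1* and 28 in *H2-DMb1*, and in neither window of *H2-DMa*. Over the 250 bases before the start, with both strands searched and no overlap between the motifs possible at this spacing, 1.15% of all 32851 windows held the pair on the strand of the gene and 1.12% held it on the other strand. Of the 12 members and other class II genes looked up, 8 had a window that was used. Of these, 6 held the pair, with *H2-Oa*, *H2-Ob* and *H2-Eb2* beside those shown. *H2-Ab1*, *Cd74*, *Ciita* and *H2-Ea* were not matched or not used. The motif letters and their spacing were chosen after these windows had been read, so the count is a description, and a match is not evidence that a factor binds there.

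Values below are signals, the linear intensities of 1 probe set per gene with every array scaled to the same mean, and a gene was tested when its signal reached 100 on at least 3 of the 6 arrays. Log2 fold changes are tumor minus control gland, with signals under 50 raised to 50, and p-values are adjusted over all genes tested. Signals of different probe sets cannot be set against each other.

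Of the 6 measured members, 3 were lower in tumors and none was higher at an adjusted p under 0.05 in the limma fit over all genes. The genes that fell were *Cd74*, *Ciita* and *H2-DMa*, to between 0.355 and 0.448 of their level in control glands. The chain genes *H2-Aa*, *H2-Ab1* and *H2-Eb1* had lower mean signals in tumors but did not pass the test. Over all 12518 genes, 16.8% were lower and 16.3% were higher, that is 2098 and 2045 genes, or 1676 and 3003 when the arrays were brought to equal medians, where the same number of members was lower. At an unadjusted p under 0.05, limma had 4 members lower and 0 higher. The share of all genes at that threshold was not counted, so nothing is read from this. The members' median log2 fold change was -1.06, beside 0.071 over all genes. *Ciita* passed the filter on low signals through the control arrays alone, and its call adds little to the count, since 19.6% of all genes called lower were likewise under a signal of 100 on every tumor array.

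*Cd74*, the invariant chain, had signals of 8459, 5078 and 6201 in control glands 1, 2 and 3 and of 2079, 2526 and 2265 in tumors 1, 2 and 3. Every tumor lay below every control gland, and the 3 tumors lay close together. The mean was 6579 ± 1722 (SD, n = 3) in controls and 2290 ± 224.5 (SD, n = 3) in tumors, so that the log2 fold change was -1.50 (SE 0.25, limma adjusted p = 0.00448), or 2.82-fold lower in tumors. *Cd74* passed the limma test whichever array was left out, with log2 fold changes between -1.67 and -1.30.

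*Ciita*, the coactivator, had signals of 234, 151.3 and 188.1 in control glands and of 81.4, 88.2 and 78.9 in tumors. The groups did not overlap, and the tumor values lay within 10 units of each other but under the signal of 100 that was used as the limit for a measured probe set. The log2 fold change was -1.19 (SE 0.23, limma adjusted p = 0.00793), and with the same genes tested the adjusted p stayed between 0.00912 and 0.0325 when single arrays were left out. A second *Ciita* probe set was at 96.8, 49 and 39.9 in controls and 29.6, 13.6 and 16 in tumors, and the third one at 187.2, 35.5 and 93.9 against 1.8, 5.2 and 54.1. Both were too dim to be tested.

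*H2-DMa*, the alpha chain of the peptide exchanger, had signals of 581.7, 473.8 and 640.8 in control glands and of 254.2, 354.2 and 176.5 in tumors. The groups did not overlap. The log2 fold change was -1.16 (SE 0.30, limma adjusted p = 0.0225), 2.23-fold lower in tumors. This call was lost without several of the arrays. The adjusted p with the same genes tested was 0.0608 without control gland 1, 0.0794 without control gland 3, 0.0531 without tumor 1 and 0.055 without tumor 3. Every tumor lay below every control gland for 3 of the 6 members, *Cd74*, *Ciita* and *H2-DMa*, and for 23.1% of all genes.

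**Figure D1:**
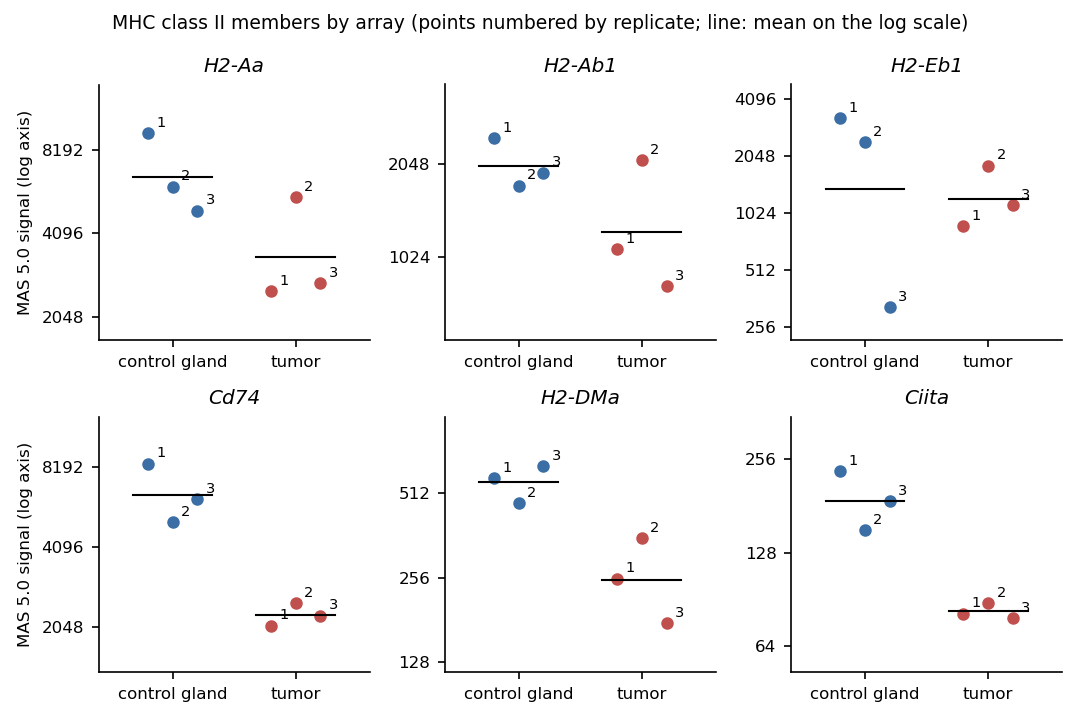
MAS 5.0 signal (log axis, scale differs between panels) of the 6 measured members in 3 control glands and 3 tumors, 1 point per array, numbered by replicate, with the mean of the log2 signals as a line. The groups are apart for *Cd74*, *H2-DMa* and *Ciita*, tumor 2 lies among the control glands for *H2-Aa* and *H2-Ab1*, and control gland 3 lies below all tumors for *H2-Eb1*.

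Among the chain genes, *H2-Aa*, the alpha chain of I-A, had signals of 9401, 6034 and 4948 in control glands and of 2530, 5524 and 2716 in tumors on the probe set with the highest mean. Tumors 1 and 3 were below all control glands and tumor 2 was between control glands 2 and 3. The log2 fold change of -0.96 (SE 0.38) had a limma adjusted p of 0.0898. Without tumor 2 it was -1.32 (adjusted p = 0.035).

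For *H2-Ab1*, the beta chain of I-A, tumor 2 was again the tumor nearest to the control glands. The signals were 2491, 1747 and 1926 in controls and 1085, 2118 and 819.9 in tumors, where tumor 2 was above 2 of the control glands. The log2 fold change was -0.72 (SE 0.37, limma adjusted p = 0.173), and -1.11 (adjusted p = 0.0338) without tumor 2.

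*H2-Eb1*, the beta chain of I-E, had signals of 3257, 2414 and 325.9 in control glands and of 870.2, 1817 and 1124 in tumors. Control gland 3 was below every tumor, at 0.115 of the mean of the other two control glands. With it the log2 fold change was -0.18 (SE 0.82, limma adjusted p = 0.885), and without it -1.21 (adjusted p = 0.0663). It was 0.45 without control gland 1, 0.23 without control gland 2 and 0.06 without tumor 1, so no direction can be given for *H2-Eb1*.

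The low value of control gland 3 was not shared by all class II probe sets. Its ratio to the mean of control glands 1 and 2 was 0.916 for *Cd74*, 1.21 for *H2-DMa* and between 0.909 and 1.16 for the 3 probe sets of *H2-Ab1*. For *H2-Aa* it was 0.641, 0.395 and 0.468 on 3 probe sets and 1.52 on the fourth, 1452431_s_at. That probe set, whose suffix marks probes shared by similar transcripts, read 7227, 5840 and 9912 in controls and 1436, 3204 and 1414 in tumors. It was called lower, with a log2 fold change of -2.00 (SE 0.38, adjusted p = 0.0072) in a limma fit over all 26967 probe sets that passed the filter. The other 3 probe sets of *H2-Aa* may cross-hybridize by their suffix and had log2 fold changes between -0.99 and -0.55, with adjusted p between 0.101 and 0.427.

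Probe sets of *H2-Ab1* differed as well. 1451721_a_at, which by its suffix is specific to transcripts of 1 gene, read 1313.4, 1004.8 and 1097 in controls and 379.4, 728 and 312.8 in tumors. Its log2 fold change was -1.36 (SE 0.34, adjusted p = 0.023 in the probe set fit). 1425477_x_at had a log2 fold change of -1.44 (SE 0.38, adjusted p = 0.0274). On both, tumor 2 was the highest tumor but below every control gland. Thus the call for *H2-Aa* and *H2-Ab1* depended on the probe set, and the direction did not. Of 14 member probe sets, 11 passed the filter, and of these 6 were called lower and 0 were called higher, beside 14.6% of all probe sets called lower. On 6 of the 11 every tumor lay below every control gland. That held for 23.1% of all genes, and its share over all probe sets was not counted. Probe sets of 1 gene read the same samples and are not replicates.

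**Figure D2:**
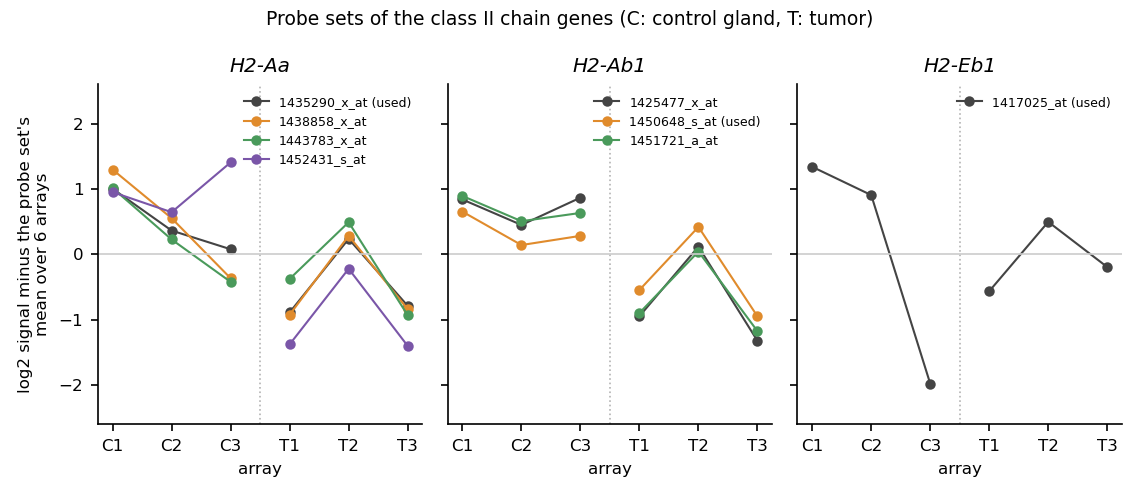
Log2 signal of each passing probe set of *H2-Aa*, *H2-Ab1* and *H2-Eb1*, minus its own mean over the 6 arrays (C, control gland, T, tumor, numbered by replicate). Tumor 2 is the highest tumor on all of them, and control gland 3 is the highest control gland on 1452431_s_at and the lowest on the other 3 probe sets of *H2-Aa* and on that of *H2-Eb1*.

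Tumor 2 had the highest tumor signals of the class II chains, and this was not particular to them. It was the highest of the 3 tumors on 11 of 11 passing member probe sets, which belong to 6 genes, and on 32.5% of all passing probe sets. Its ratio to the mean of tumors 1 and 3 was between 2.11 and 2.25 for the 4 probe sets of *H2-Aa*, between 2.1 and 2.36 for those of *H2-Ab1* and 1.82 for *H2-Eb1*. The ratio was 1.64 for *H2-DMa*, 1.16 for *Cd74* and 1.1 for *Ciita*. The *Ciita* tumor signals were under the limit of 100, and on its other 2 probe sets, which were too dim to be tested, the ratio was 0.596 and 0.186. Among other listed genes tumor 2 was also the highest tumor for *Iigp1* (1874, 4078 and 2035 in tumors 1, 2 and 3), *Gbp6* (420.3, 1099 and 512.8) and *Psmb8* (903.8, 2020 and 1078). For others, such as *Tap2* (732.4, 396.5 and 822.9) and *Tapbp* (3847, 2407 and 4758), tumor 2 was the lowest. These genes were picked as examples for their tumor 2 signals.

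The counts of the gene lists below stand beside 16.8% of all genes lower and 16.3% higher, and nothing particular to a list is read from a count near these shares. Of 5 other class II genes listed, 3 were tested, 2 were lower and none was higher, with a median log2 fold change of -1.97, and *H2-Oa* and *H2-Ob*, the chains of the DM inhibitor, did not pass the filter. *H2-DMb2*, a beta chain of DM, read 821.9, 230.1 and 401.9 in controls and 97.3, 136.9 and 66.3 in tumors (log2 fold change -2.14, SE 0.49, limma adjusted p = 0.0147). *H2-Ea*, the alpha chain of I-E and a pseudogene in the reference strain, read 273.2, 139 and 344.2 against 67.7, 47.9 and 64.2 (-1.97, SE 0.36, adjusted p = 0.00617). It passed the filter through control glands alone, and it was not low in control gland 3, the sample in which *H2-Eb1* was low. *H2-Eb2* did not pass (-0.81, adjusted p = 0.14). Without any 1 of the control glands, 2 of these genes were tested and 1 was called lower.

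The endosomal genes that cleave antigen and the invariant chain had calls in both directions. Of 12 tested, 2 rose, 4 fell and 6 did not pass, with a median log2 fold change of -0.13, and the count that rose was near the share over all genes. *Ctsh*, cathepsin H, rose from 2783, 1286 and 2133 in control glands to 6474, 9587 and 6618 in tumors (1.92, SE 0.33, limma adjusted p = 0.00514), and *Ifi30*, the lysosomal thiol reductase that unfolds antigens, rose as well (1.33, SE 0.26, adjusted p = 0.00839). *Marchf1*, a ubiquitin ligase that removes class II from the cell surface, fell (-1.71, adjusted p = 0.0256). It passed the filter through control glands alone, and the call was lost without 4 of the 6 arrays (control glands 1 and 3, tumors 1 and 3, adjusted p up to 0.125), with either other floor and with no filter. Lower too were the cysteine protease inhibitor *Cst3* (-1.56, adjusted p = 0.0123) and the protease *Ctsl* (-1.54, adjusted p = 0.015). *Ctss*, the protease that trims the invariant chain in antigen-presenting cells, read 6096, 6647 and 4192 in controls and 5386, 8180 and 4938 in tumors, overlapping groups that differed by 0.12 on the log2 scale (adjusted p = 0.778). *Lamp1* had 0.05 (adjusted p = 0.86). Leaving out single arrays gave 3 or 4 genes lower and 2 higher.

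Of 11 genes that control class II transcription, 1 rose, 2 fell and 8 did not pass, with a median of 0.04, and neither count stood apart from the shares over all genes. The gene that rose and 1 that fell lost their calls when most single arrays were left out. The subunits of RFX had log2 fold changes of -0.20 for *Rfx5*, 0.18 for *Rfxap* and 0.49 for *Rfxank*, with limma adjusted p between 0.161 and 0.591. Among subunits of NF-Y, *Nfyc* rose (0.70, SE 0.20, adjusted p = 0.0338), a call that was lost without any array but tumor 2 (adjusted p up to 0.0995), and *Nfya* had 0.04 (adjusted p = 0.909). *Irf8*, a factor of dendritic cells and B cells, read 1365, 573.4 and 606.4 in controls and 254.2, 421.8 and 201.8 in tumors (-1.49, SE 0.42, adjusted p = 0.0315), a call lost without 4 of the arrays, control glands 1 and 3 and tumors 1 and 3 (adjusted p up to 0.0941). *Irf4*, also a lymphoid and dendritic cell factor, read 655.8, 130.4 and 312.1 in control glands and was under 50 in all tumors, at least 5.98-fold lower against that floor (adjusted p = 0.00976). It passed the filter through control glands alone and lost the call with a floor of 100 or no filter. *Prdm1*, a repressor of *Ciita* in plasma cells, had -0.08 (adjusted p = 0.894). The count of lower genes was 0 without control gland 1 or 3 and 1 without control gland 2, tumor 1 or tumor 3. One gene was called higher without tumor 2 and none in the other 5 cases. *Irf4* was not tested without any 1 control gland, when 10 genes of the list were tested.

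Interferon-gamma is the main inducer of *Ciita* outside professional antigen-presenting cells, and its receptor and targets were listed for that reason. Of 24 listed, 18 were tested, of which 1 rose, 8 fell and 9 did not pass, with a median of -0.50. *Ifng* itself did not pass the filter. The receptor chain *Ifngr1* read 1702, 1954 and 1907 in controls and 857.6, 730 and 678.8 in tumors (-1.30, SE 0.20, limma adjusted p = 0.00343), while *Ifngr2* had -0.06 (adjusted p = 0.894). The targets that fell most were the tryptophan-degrading enzyme *Ido1* (-3.17, SE 0.60, adjusted p = 0.00731), the checkpoint ligand *Cd274* (-2.99, SE 0.28, adjusted p = 0.000522) and the chemokine *Cxcl9* (-2.87, SE 0.67, adjusted p = 0.016). *Irf9* rose (1.35, SE 0.25, adjusted p = 0.00662), and *Irgm1* had 0.11 (adjusted p = 0.81). *Ido1* and *Cd274* passed the filter through the control glands alone, with every tumor under a signal of 100, so they could be called lower and not higher. The count of lower genes fell to 3 without control gland 1, 5 without control gland 2 and 2 without control gland 3, when 16 of the genes were tested, and was 5, 6 and 5 without tumors 1, 2 and 3.

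Genes of co-stimulation, whose products antigen-presenting cells show to T cells together with class II, gave 5 tested genes of 9. Of these, 3 fell and none rose, with a median of -1.17. *Cd83* read 985.3, 537.9 and 408 in controls and 72.5, 234.5 and 108 in tumors (-2.29, SE 0.49, limma adjusted p = 0.0119). *Cd40* fell (-1.41, SE 0.33, adjusted p = 0.0168) and *Icosl* fell (-0.92, SE 0.28, adjusted p = 0.0403). *Cd40* passed the filter through control glands alone and lost its call without tumor 3, with either other floor and with no filter (adjusted p up to 0.0532 without single arrays). *Icosl* lost its call without any array but control gland 2 (adjusted p up to 0.118), and also with equal medians, no filter, a replicate block and averaged probe sets. *Cd80* and *Cd86* had -0.40 (adjusted p = 0.388) and -1.17 (adjusted p = 0.0713). Only 1 gene of the list was lower without control gland 1 (3 tested), control gland 3 (4 tested) or tumor 3 (5 tested). The count was 2 without tumor 1 (5 tested) or tumor 2 (4 tested), and 3 without control gland 2 (3 tested).

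The class I pathway is used by all cells of the gland. Of 12 genes tested, 2 rose, none fell and 10 did not pass, with a median of -0.20, and the count that rose was near the 16.3% over all genes. The genes that rose were the chaperones *Calr* (1.00, SE 0.24, limma adjusted p = 0.0181) and *Pdia3* (0.99, SE 0.23, adjusted p = 0.0157), which also fold other glycoproteins, and 1 gene passed without control gland 2 or tumor 2 and none without control gland 3 (*Calr* up to an adjusted p of 0.0662, *Pdia3* 0.0502). The heavy chain *H2-K1* read 21780, 18120 and 17090 in controls and 13250, 22730 and 19070 in tumors, which differed by -0.08 on the log2 scale (adjusted p = 0.842). *Erap1*, the peptide-trimming enzyme, had -0.02 (adjusted p = 0.956). Whether class I and class II genes differed in their response was not tested.

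**Figure D3:**
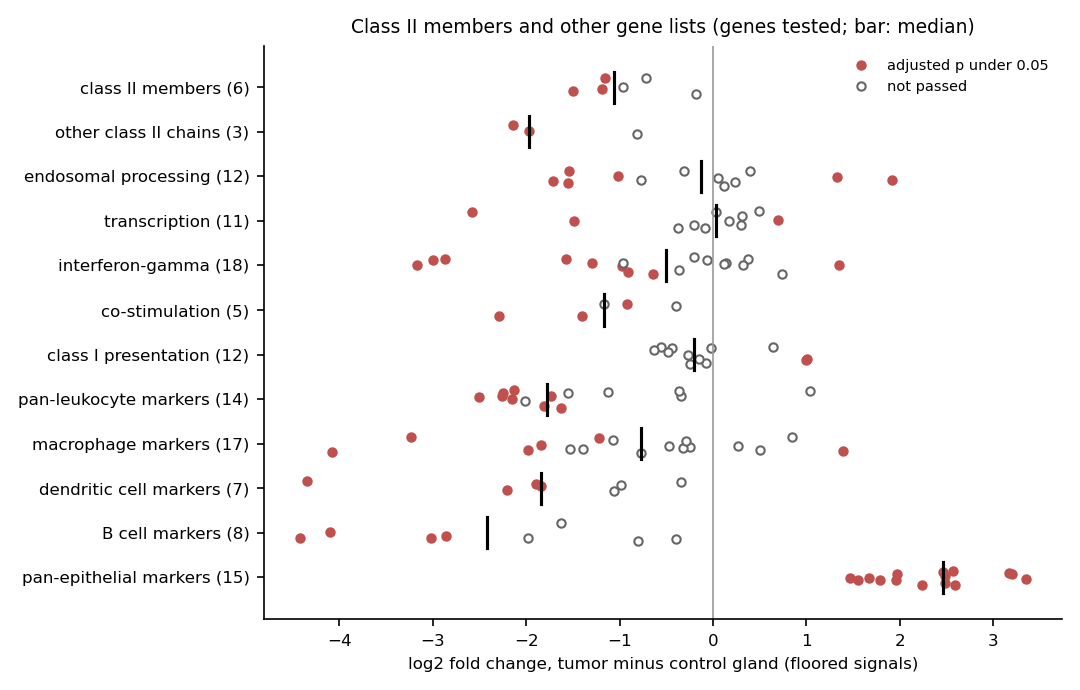
Log2 fold change (tumor minus control gland) of every tested gene of 12 lists, with the number tested in brackets, filled points for an adjusted p under 0.05 and a bar at the median. The class II members lie between -1.50 and -0.18, class I genes lie around 0, leukocyte lists lie mostly below 0 and all pan-epithelial markers lie above 0.

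Markers of cell types also differed between the groups in the same arrays, while the makeup of the samples itself was not measured. Markers of all leukocytes were lower for 8 of 14 genes and higher for none, with a median of -1.77, and their summed signal was 12640 to 41870 in controls and 9479 to 11290 in tumors. *Cd48* (-2.51, limma adjusted p = 0.0179), *Ptprc* (-2.26, adjusted p = 0.0193) and *Cd37* (-2.25, adjusted p = 0.0241) fell most, whereas *Ikzf1* (-0.37, adjusted p = 0.64) and *Vav1* (-0.34, adjusted p = 0.403) did not pass. *Lcp1*, an actin-bundling protein, went the other way, at 3270, 1856 and 1801 in controls and 3327, 4540 and 6350 in tumors, every tumor above every control gland (1.04, SE 0.34, adjusted p = 0.0505). Control gland 1 had the highest sum, beside 12640 and 17150 in the other two control glands, and it was the highest control gland on 8 of 11 class II probe sets, which belong to 6 genes, and on 38.3% of all probe sets that passed. The count of lower leukocyte markers was 7, 10 and 4 without control glands 1, 2 and 3 and 5, 6 and 3 without tumors 1, 2 and 3, and 1 marker was higher without control gland 1 or tumor 1. *Ptprc* lost its call without control gland 3 or tumor 3, and *Cd37* without control gland 3 or any 1 tumor (adjusted p up to 0.0716).

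Dendritic cell markers were lower for 4 of 7 tested genes of 15 listed, with summed signals of 5507 to 9051 in controls and 1200 to 3164 in tumors. The lectins *Clec10a* (-4.35, limma adjusted p = 0.00185) and *Cd209a* (-2.20, adjusted p = 0.000633) and the factor *Zbtb46* (-1.89, adjusted p = 0.00143) fell, while *Itgax* (-1.06, adjusted p = 0.15) and *Itgae* (-0.34, adjusted p = 0.38) did not pass. *Flt3*, *Xcr1*, *Ccr7* and *Siglech* were among the 7 that did not pass the filter, which *Cd209a* passed through control glands alone. The count was 2 without any 1 control gland, when 5 or 6 genes were tested and *Cd209a* was not. It was 3 or 4 without any 1 tumor, when 6 or 7 were tested.

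Macrophage markers were lower for 5 and higher for 1 of 17 tested genes, with summed signals of 28290 to 46680 in controls and 11090 to 20370 in tumors. *Cd163* (-4.09, limma adjusted p = 0.00103) and *Mrc1* (-3.23, adjusted p = 0.0212), receptors of resident macrophages, and *Lyz2* (-1.98, adjusted p = 0.0304) fell. *Cx3cr1* rose (1.40, adjusted p = 0.00798), and *Aif1* (0.27, adjusted p = 0.768) and *Cd14* (-0.28, adjusted p = 0.748) did not pass. *Mrc1* and *Lyz2* lost their calls without any 1 control gland (adjusted p up to 0.0855). The count of lower genes was 3 without control gland 1 or 2 and 5 in the other 4 cases, and 2 were higher without control gland 1.

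B cell markers were lower for 4 of 8 tested genes of 14 listed, with summed signals of 6644 to 16420 in controls and 999.3 to 1662 in tumors. *Ms4a1* was at 3957, 187.4 and 1075 in controls and at 62, 49.9 and 51.2 in tumors (-4.10, limma adjusted p = 0.0163), and it passed the filter through control glands alone. *Ighm* (-4.42, adjusted p = 0.000522) and *Cd22* (-3.02, adjusted p = 0.0177) fell too, and *Pax5* (-0.39, adjusted p = 0.304) and *Blnk* (-0.80, adjusted p = 0.256) did not pass. The calls were lost without tumor 2 for *Ms4a1* (adjusted p = 0.057) and without control gland 3, tumor 2 or tumor 3 for *Cd22* (up to 0.0592). The count was 2 of 4, 4 of 6 and 1 of 4 tested genes without control glands 1, 2 and 3. It was 3 of 8, 1 of 7 and 2 of 7 tested genes without tumors 1, 2 and 3. T cell markers were lower for 2 of 5 tested genes, and for 1 of 4 without control gland 1 or 3.

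Epithelial markers were higher for 15 of 15 genes, with a median of 2.46, and markers of adipocytes, fibroblasts and endothelium were lower for 9 of 10, 10 of 11 and 10 of 12 tested genes. With single arrays left out, 13 to 14 of 14 or 15 tested epithelial markers were higher. Lower were 9 adipocyte and 6 to 11 fibroblast markers, and 6 to 12 of 11 or 12 tested endothelial markers. The count was 6 for fibroblast markers without control gland 2, control gland 3 or tumor 2, and 6 for endothelial markers without control gland 3. In bulk samples such as these, fewer class II-bearing cells and less class II RNA per cell cannot be told apart, and the part of these markers in the class II differences was not tested.

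The members were set against the leukocyte markers within each array, where the scaling of the array cancels. The mean log2 signal of the 6 members minus that of the 14 pan-leukocyte markers was -0.02, 1.16 and 0.35 in controls and 0.74, 1.21 and 1.14 in tumors, overlapping groups with means of 0.49 ± 0.60 and 1.03 ± 0.25 (SD, n = 3). The difference of 0.54 means that the members were lower by less than the leukocyte markers were. It was 0.34 without control gland 1 and 1.01 without control gland 2. In both of these cases *Ciita* was not tested, so the values are over 5 members and part of the shift can come from the changed gene set. With all 6 arrays the difference varied between members, from -0.01 for *Cd74* to 1.31 for *H2-Eb1*. With 3 arrays against 3, an exact permutation test cannot go below 0.1, and for the single members it gave p between 0.2 and 1, two-sided and unadjusted.

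Against macrophage markers the members' difference between tumors and control glands was -0.04, with values of 0.50, 0.60 and 0.40 in controls and -0.17, 0.68 and 0.86 in tumors. Against dendritic cell markers it was 0.86, and the groups overlapped by 1 tumor, tumor 1. Against B cell markers it was 1.45, with 0.76, 2.54 and 1.03 in controls and 2.82, 3.07 and 2.80 in tumors, so that every tumor was above every control gland. Of the 8 B cell markers, *Ms4a1* and *Cd79b* passed the filter through control glands alone and could only be lower in tumors. The filter thus had a part in this separation. Against pan-epithelial markers the difference was -3.28.

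**Figure D4:**
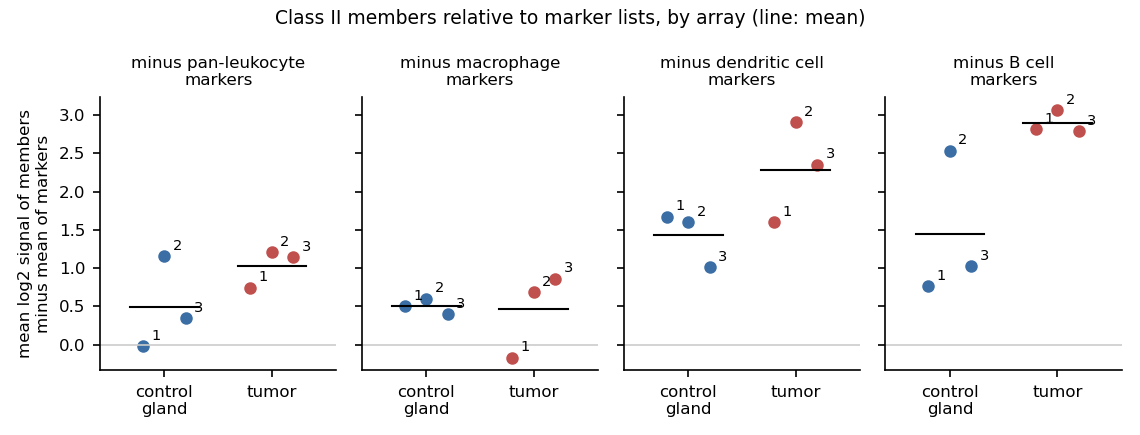
Mean log2 signal of the 6 class II members minus the mean log2 signal of 4 marker lists, 1 point per array, numbered by replicate, with the group mean as a line. Control glands and tumors overlap against pan-leukocyte, macrophage and dendritic cell markers, and the tumors lie above the control glands against B cell markers. Of the B cell markers, 2 passed the filter through control glands alone.

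The genes whose pattern over the 6 arrays was most like that of the class II chains were ranked by the root mean square difference from the mean of *H2-Aa*, *H2-Ab1*, *H2-Eb1* and *Cd74*, each centred on its mean log2 signal. The nearest were *Vps13c* at 0.14, *Cysltr1*, a leukotriene receptor, at 0.15 and *Plek*, a protein kinase C substrate of leukocytes and platelets, at 0.16 on the log2 scale. *Kcnj6* (0.19), *Rundc3b* (0.21), *Syn1* (0.24), *Casp4* (0.24) and *Fmnl1* (0.25) followed. *Plek* read 788, 580.4 and 413 in controls and 232.7, 389.4 and 217.3 in tumors and was lower (-1.09, SE 0.33, limma adjusted p = 0.0414), and none of the other 7 passed. The call on *Plek* was lost without control gland 1, control gland 2, tumor 1 or tumor 3 (adjusted p up to 0.118) and with equal medians or quantile normalization. Of the members, *H2-Aa* was at 0.16 from this mean, *H2-Ab1* at 0.34, *Ciita* at 0.44, *H2-DMa* and *Cd74* at 0.49 and *H2-Eb1* at 0.79. Several of the 8 genes were close to the signal limit of 100. *Vps13c*, *Cysltr1*, *Kcnj6*, *Rundc3b*, *Syn1* and *Fmnl1* were under it in tumors 1 and 3. *Kcnj6* (26 in tumor 3), *Rundc3b* (16.8 in tumor 3) and *Syn1* (26.1 in tumor 1) had values raised to the floor of 50. Their rank thus rests in part on the floor, and the ranking without it was not tested. The mean used for the ranking also holds the low *H2-Eb1* value of control gland 3.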

How the data were processed

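RNA of 3 mammary tumors and 3 control mammary glands, labelled biological replicates, was measured on Affymetrix M430 2.0 arrays. The sources do not say that each sample came from its own animal, and the p-values measure only the spread between these samples. The deposited intensity values are linear signals that the authors made with MAS 5.0 and scaled to a target of 500 per array. The median signal was 124.4 to 170.7, and the number of arrays limits the precision. Of 45101 probe sets, 64 controls were left out, 34945 had 1 gene symbol, 932 had several and 9160 were unnamed here. Signals were floored at 50 before taking log2, so folds of dim genes are understated. Probe sets that reached a signal of 100 on 3 or more arrays were kept (26967), and each of 12518 genes was represented by its brightest probe set (mean log2 over the arrays).

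The comparison used the lmFit and eBayes functions (limma 3.58.1, R 4.3.3), two-sided, with Benjamini-Hochberg adjustment over all genes and a threshold of 0.05. A fit over all kept probe sets was added after the data had been seen. Fold changes are tumor minus control gland on the log2 scale. The steps were tested on simulated data. Of 50 genes given a true log2 change of 1, 11 were called, and 36, 45 and 45 of 50 at changes of 2, 3 and 4. In that run 10 unchanged genes were called, and 0 in a run without changes. Genes with a change near 1 could thus often fail to pass.

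The members and the 16 gene lists (205 symbols, 195 annotated) were chosen with earlier results of these data known. Named were all members, up to 3 called genes with the largest change and up to 2 furthest from passing per list, and the 8 genes nearest in pattern. *Rfx5*, *Rfxap*, *Rfxank*, *Ifi30*, *Ctsl*, *Ifngr1*, *Irf9*, *Cx3cr1* and *Lcp1* were named outside this rule, after their values were seen. So were *Iigp1*, *Gbp6*, *Psmb8*, *Tap2* and *Tapbp*, as examples for tumor 2, and *Cd79b*, for its filter status. The genes of this second group were not followed under the alternatives. The T cell and non-immune lists are given as counts. As alternatives, the floor was set to 16 or 100 or replaced by adding 50, arrays were brought to equal medians or to the same quantiles, the filter was dropped or raised to 200, limma was run with a trend or with a replicate block, each array was omitted, x and s probe sets were dropped, probe sets were averaged and the methods' t-test was run (a statistic of at least 4.5 and a ratio of at least 2 on linear signals). Promoter windows came from RefSeq.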

Additional observations from a re-analysis of the deposited data

How the results depend on the processing

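The number of members lower in tumors was 3 with both other floors, 50 added in place of a floor, equal medians, quantile normalization and the variance trend. It was 2 with no filter, with a filter at 200 and with the replicate number as a block, and 4 (with *H2-Ab1*) without x or s probe sets and with the mean of probe sets. Same-numbered samples did not deviate together (correlations of -0.222, 0.0206 and 0.0379). Other pairs of samples ran from -0.161 to 0.134, and such a check could miss a pairing. Under the replicate block *H2-DMa* had a limma adjusted p of 0.0559. With single arrays left out the count ranged from 1 to 5. It was 1 without control gland 1 or 3, when *Ciita* was not tested for want of bright arrays, and 2 there with the genes of the 6-array fit kept, a setting chosen after seeing the data. It was 2 without control gland 2, where *Ciita* was not tested either. It was 5 without tumor 2. By the methods' t-test it was 0, with 1605 genes called in all and 0 members among the 140 genes with an adjusted p under 0.05. At the unadjusted p of that t-test 3 members were under 0.05 and lower, and the share of all genes there was not counted. No member was called higher under any of these settings. The difference between members and leukocyte markers ranged from 0.34 to 1.01 with single arrays left out. Without any 1 control gland it was taken over 5 members, as *Ciita* was not tested. Equal array medians moved the median of all genes from 0.071 to 0.308 and the counts of lower and higher genes from 2098 and 2045 to 1676 and 3003. Of 983 values of 57 other named genes under the alternatives, 840 kept direction and call, 101 lost the call, 9 gained it and 33 changed sign. The sign changed for *H2-Eb1* under equal medians (0.0615) and without single arrays (-1.21 to 0.45). It changed with quantile normalization for *Lamp1* (-0.0771), *Prdm1* (0.13), *Ifngr2* (0.0779) and *Erap1* (0.0074), with equal medians for *Prdm1* (0.16), *Ifngr2* (0.18), *Erap1* (0.22), *H2-K1* (0.16) and *Rfx5* (0.0353), with averaged probe sets for *Nfya* (-0.11), without x or s probe sets for *Rfxank* (-0.33), and on linear means for *Aif1* (-0.13). Without single arrays it changed for *Lamp1* (-0.016 to 0.14), *Ctss* (-0.10 to 0.26), *Nfya* (-0.0912 to 0.16), *Prdm1* (-0.38 to 0.27), *Ifngr2* (-0.31 to 0.10), *Irgm1* (-0.16 to 0.34), *Erap1* (-0.0945 to 0.0338), *H2-K1* (-0.25 to 0.14), *Ikzf1* (-0.90 to 0.21), *Cd14* (-1.01 to 0.26) and *Aif1* (-0.18 to 1.03), none of which was called. The cause of these changes was not tested.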
